A study of Mus musculus with 5 samples.

Results

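The comparison set EHeD14 against EHeD7, ES-Hepa hybrids after 14 and after 7 days of differentiation. It covered 2 of the 5 arrays of the series, 1 for each day. The study picked several colonies of each hybrid and the sample titles name none, so a difference of colony could not be told apart from the day. EHe is a hybrid of the mouse ES cell line E14 and the mouse hepatoma line Hepa1-6, and both parents and the undifferentiated hybrid were measured on the other arrays. E14 and EHe had been grown with leukemia inhibitory factor, and for differentiation EHe was spread as a monolayer on gelatin, according to the labels, with 15% fetal calf serum in the medium. The study's methods also describe embryoid bodies in medium with serum replacement, without tying them to these arrays. The EHeD7 and EHeD14 arrays lay on 1 slide. Every condition had 1 array, so no difference below has a replicate error or a p-value, and the number of arrays limits the precision.

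Each array carried 41174 mouse gene probes, of which 26888 could be named as 18327 gene symbols and 14286 could not. A level is the log2 intensity of a probe minus the 75th percentile of its array, so a level of 0 stands for that percentile. The scanner software marks each spot as well above background or not, and a probe so marked is called bright here. The comparison kept the 28151 probes that were bright at day 7 or at day 14, of which 25833 were bright on both days, 344 at day 14 alone and 1974 at day 7 alone. They cover 14696 named genes, each represented by its brightest probe. The detection limit of an array is its lowest bright signal, at a level of -6.16 at day 7 and -5.55 at day 14. A probe that was not bright was raised to this limit where it lay below it, and its fold is then a lower bound. Other probes that were not bright kept their own level, and their folds rest on a dim signal and are not bounds. The limit was lower at day 7, so bounds of rises are larger than a common limit would give. Rose and fell mean a difference over 2-fold, and 3-fold, the fold the study names, is used for the larger changes.

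ES cells held with leukemia inhibitory factor keep the naive state of the early blastocyst, marked by factors such as Esrrb, Tfcp2l1 and Klf4. When the factor is withdrawn they pass to a primed state like that of the later epiblast, in which Pou5f1 is still expressed, and from there to the germ layers. The extraembryonic endoderm, which lines the yolk sac, is a separate lineage that also arises in cultures of ES cells. Genes of the germline and of meiosis are expressed in naive ES cells at levels that most body tissues lack.

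The scanner software called 67.6% of probes bright at day 7 and 63.6% at day 14, and no spot was saturated. For the 245 probes printed 10 times on each array, the difference between the days had a median SD between single spots of 0.10 on the log2 scale among probes bright on both days with a level above -3, of 0.22 among the dimmer bright probes and of 0.48 among those not bright on both. The scanner's own error of a difference had a median of 0.20 for genes bright on both days. Both figures measure spots and scanner, not cultures.

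Neighbouring spots on the array moved together. Of the 187 probes over 3-fold higher at day 14, 113 (60.4%) touched a spot that was over 2-fold higher as well, against 6.39% of all probes tested, and of the 180 over 3-fold lower, 104 (57.8%) touched a spot over 2-fold lower, against 6.61% of all. A spot usually touches 6 others. Genes with a further probe give a second reading at another position of the array. Among the genes over 2-fold higher without such a neighbour, the other probes were above 0 for 20 of 21, with a median difference of 1.12, and among those with such a neighbour for 6 of 11, with a median of 0.11. Among the genes over 2-fold lower, the other probes were below 0 for 35 of 40 without such a neighbour, with a median of -0.93, and for 6 of 9 with one, with a median of -0.16. The cause was not tested. Counts are therefore given with and without these probes, and a named gene whose spot touches a spot moved in the same direction is described as having a moved neighbour.

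**Figure D1:**
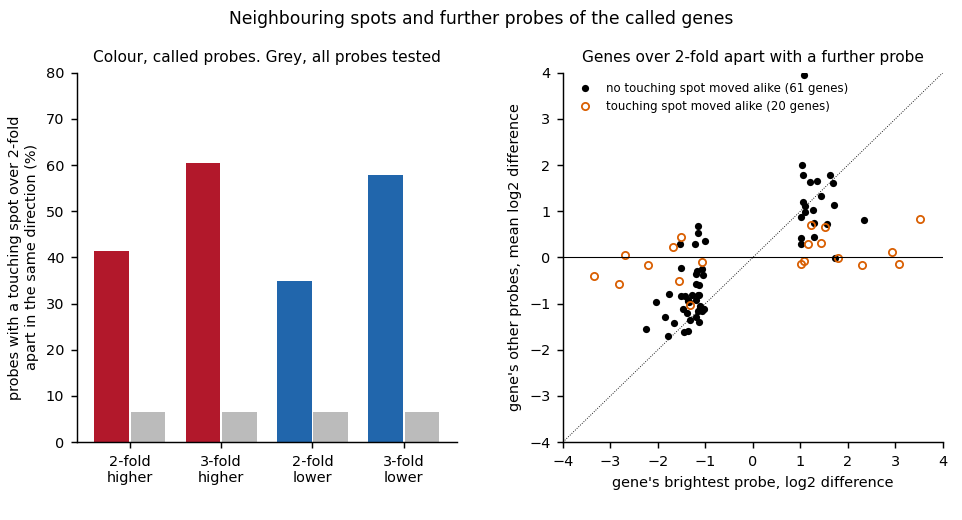
Left, the share of called probes (colour) and of all probes tested (grey) whose spot touches a spot over 2-fold apart in the same direction, in percent. Right, each point is a gene over 2-fold apart with a further probe, with the log2 difference of its brightest probe on the x axis and the mean of its other probes on the y axis. Filled points, without a moved neighbour, mostly lie on the same side of 0 on both axes, and open points, with one, lie mostly between -1 and 1 on the y axis.

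Fewer probes were past 3-fold between day 7 and day 14 than between EHe and day 7. The median absolute log2 difference between day 7 and day 14 was 0.17 over all probes, and 96.7% of probes lay within 2-fold. Over 3-fold, 187 probes (0.664%) were higher at day 14 and 180 (0.639%) lower, and 74 and 76 of these had no moved neighbour. Over 2-fold, 431 probes (1.53%) were higher and 493 (1.75%) lower, or 253 and 321 without a moved neighbour. For EHeD7 over EHe, a comparison that shares the EHeD7 array, 1505 probes (5.36%) rose past 3-fold and 1075 (3.83%) fell past it, with a median absolute difference of 0.45. In named genes, 201 (1.37%) rose between day 7 and day 14 and 280 (1.91%) fell, and 137 (0.932%) and 205 (1.39%) did so without a moved neighbour. Over 3-fold there were 80 genes (0.544%) higher and 100 (0.68%) lower, and 39 (0.265%) and 54 (0.367%) without a moved neighbour. Without raising dim values to the detection limit, 291 probes were higher and 424 lower past 3-fold, while with normexp background correction, which pulls dim signals together, the numbers were 36 and 42.

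**Figure D2:**
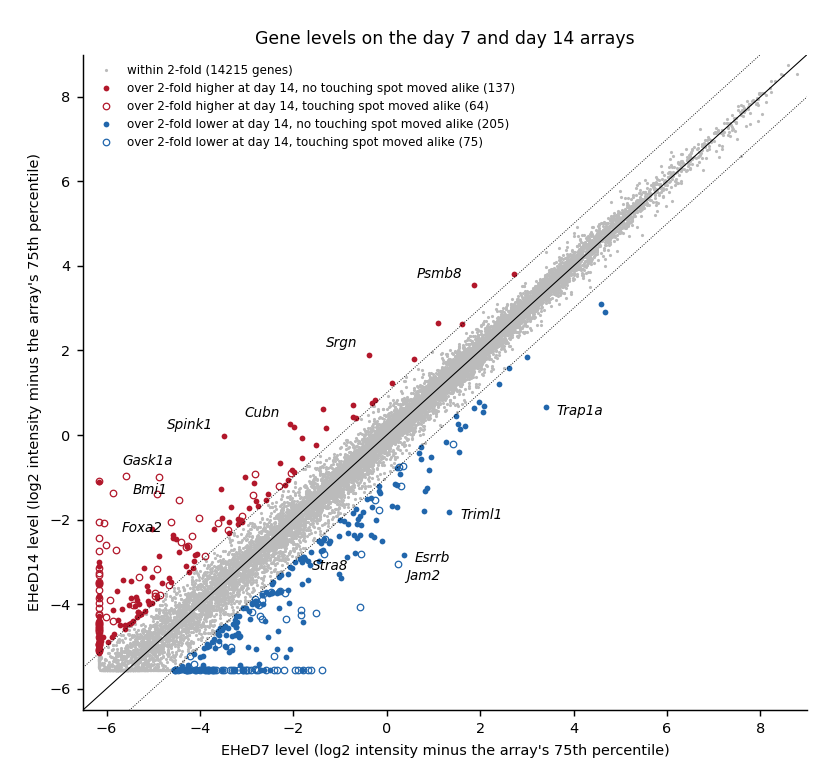
Each point is a named gene, with its level at day 7 on the x axis and at day 14 on the y axis, both as log2 intensity minus the 75th percentile of the array. Dotted lines mark 2-fold. The rows of points at the left and lower edges are genes below the detection limit on 1 of the days, drawn at that limit, and open circles are genes with a moved neighbour, which crowd at low levels.

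The cultures on both days carried markers of pluripotent and of epithelial cells. Pou5f1, the central pluripotency factor, was at 4.41 at day 7 and 4.18 at day 14, beside 3.75 in ES and 4.04 in EHe, and was not bright in Hepa1-6. Krt8 and Krt18, the keratins of simple epithelia, stood at 5.02 and 5.17 at day 7 and at 5.64 and 5.61 at day 14. Of the 17 hepatocyte genes with a named probe, 8 were bright on neither day, among them Alb, Afp and Ttr, the albumin, fetal albumin and thyroxine carrier of liver, and 7 were bright on both. Of the macrophage and leukocyte genes with a named probe, 7 of 10 were bright on neither day, Ptprc and Spi1 among them. This was so for 5 of 12 endothelial genes, Kdr and Cdh5 among them, while 6 were bright on both days. It was also so for 3 of 10 red blood cell genes, Alas2 among them, while 6 were bright on both days. In such bulk RNA, fewer cells of a type and less RNA per cell cannot be told apart.

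Genes of the naive state fell further in the second week. Of the 13 listed, Nanog, Prdm14 and Fgf4 had no named probe and the other 10 were bright on both days. Of these, 6 fell, beside 1.91% of all genes, and none rose, with a median difference of -1.15 beside 0.02 over all genes. Esrrb, an orphan nuclear receptor of the naive network, was at 4.12 in ES and 4.02 in EHe, at 0.37 at day 7 and at -2.84 at day 14, a 9.25-fold fall in the second week. Tcl1, a coactivator of Akt kinase, went from 3.42 in EHe to -0.34 at day 7 and -2.36 at day 14. The same order of levels, EHe over day 7 over day 14, was seen for Tfcp2l1, a factor of the same network, at 1.15, -1.25 and -2.56.

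Dppa3, a maternal factor that protects imprints, was at 1.51 in ES but at -1.09 in EHe, and fell by 1.34 on the log2 scale to -2.75 at day 14. Klf4 fell from 1.53 to 0.25 and Zfp42, also known as Rex1, from 2.62 to 1.60, both having been at 5.64 or more in EHe. Klf5 (2.85 and 2.51) and Tbx3 (-1.55 and -1.58) differed little between the days. Nr0b1, which has a moved neighbour, was at 0.32 and -0.43. The probes for Klf2 disagreed, the brightest differing by 0.47 and the other by -2.15, so no direction is given for it. With normexp correction 4 of the 10 fell, with a median of -0.91.

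The core pluripotency genes did not follow. All 11 of the 12 listed that had a named probe were bright on both days, and none was past 2-fold, with a median difference of -0.13. Pou5f1 is given above, Sall4, a zinc finger partner of Pou5f1, was at 3.31 and 3.17, Tdgf1, a Nodal coreceptor, at 3.76 and 3.66, and Sox2 at 1.68 and 1.31. The nearest to 2-fold was Dppa5a, an RNA-binding protein of ES cells, at 7.58 and 6.59, with its other probe at a difference of -0.90.

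Genes of the primed epiblast were held from day 7 on. None of the 7 measured of 8 listed was past 2-fold, and 6 were above 0, with a median difference of 0.19. Fgf5, a growth factor that marks the primed epiblast, was not bright in EHe, stood at 2.34 at day 7 and at 2.98 at day 14. Pou3f1 went from 2.05 to 2.91, Otx2 from 3.48 to 3.59 and Dnmt3b, a de novo DNA methyltransferase, from 4.48 to 4.67. Dnmt3a, its sister enzyme, was lower by 0.83, and its 2 other probes by a mean of 0.84, a difference that stayed within 2-fold.

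The germline and meiosis genes formed the list with the lowest median of the 42, at -1.26. Here and for the other lists, members were chosen with earlier results of these data known, so ranks and shares are descriptive only. Of the 11 listed, Sycp3 had no named probe, and the other 10 were bright and below 0 at day 14 against day 7, 7 of them past 2-fold, beside 1.91% of all genes. Stra8, the gatekeeper of meiotic entry, was at 5.15 in ES, 4.09 in EHe, -0.68 at day 7 and -2.80 at day 14. Sycp1, the transverse filament of the synaptonemal complex, was at -2.69 in ES, -1.88 in EHe and -2.32 at day 7, and then fell to -4.63. Sycp1 thus differed little among the earlier arrays, and its fall lay in the second week.

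Taf7l, a germ cell subunit of the basal transcription machinery, stood at -1.33 in EHe, 0.17 at day 7 and -1.15 at day 14, and its other probe gave a difference of -1.37 against -1.32. Mov10l1, a helicase of piRNA production, fell from -2.12 to -3.66. Dazl, a translation factor of germ cells, fell from -3.69 to -5.05, with its other probe at -0.94. Tex19.1, which restrains retrotransposons, fell from 2.40 to 1.20. The seventh, Stag3, a meiotic cohesin, fell by 1.02 on the log2 scale but has a moved neighbour, and was within 2-fold when the arrays were shifted by their medians. Rec8 (-0.84), Ddx4 (-0.66) and Mael (-0.60) were lower within 2-fold, Mael with a moved neighbour. None of the 7 that fell was bright in Hepa1-6 except Taf7l, at -5.03. With normexp correction 5 of the 10 were past 2-fold.

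Several germline promoters share the E-box CACGTG, which is its own reverse complement. In the RefSeq promoter windows (mouse build GRCm38.p6, 250 bases before to 50 after the start of a gene), 7 of the 11 listed germline genes held it (63.6%), beside 8.09% of the 27025 genes with a window. The windows of Stra8, Dazl, Rec8 and Tex19.1 did not hold these letters, though Stra8, Dazl and Tex19.1 fell. Ddx4 and Mael, which were within 2-fold, and Sycp3, which had no named probe, held them. The share thus describes the list and not the fall at day 14. The match is a description of the sequence and not of a bound site. Stretches of 60 bases around it are shown for the genes that fell, in lower case with the E-box in capitals, on the strand of the gene.
Sycp1, minus strand, chr3:102936162-102936221: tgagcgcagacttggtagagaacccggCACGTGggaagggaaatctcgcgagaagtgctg
Taf7l, minus strand, chrX:134476507-134476566: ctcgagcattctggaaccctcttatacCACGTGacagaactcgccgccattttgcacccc
Mov10l1, plus strand, chr15:88982744-88982803: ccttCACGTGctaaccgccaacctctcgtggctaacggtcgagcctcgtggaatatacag
Stag3, plus strand, chr5:138280312-138280371: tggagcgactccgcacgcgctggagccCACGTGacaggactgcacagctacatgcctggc

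**Figure D3:**
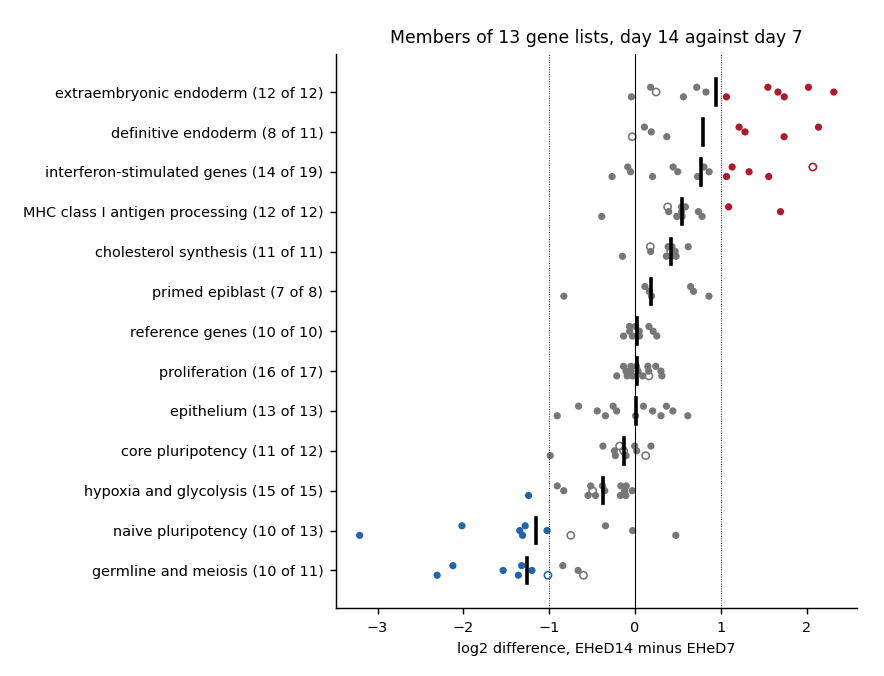
Each point is a measured member of 1 of 13 gene lists, with the log2 difference EHeD14 minus EHeD7 on the x axis, and the vertical bar is the median of the list. Red and blue points are past 2-fold, open points have a moved neighbour, and the numbers give members measured of members listed. The naive and the germline lists lie to the left of 0 with medians of -1.15 and -1.26, and the endoderm lists have medians of 0.94 and 0.79, the latter 0.37 over members bright on both days.

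Extraembryonic endoderm genes had a median difference of 0.94. All 12 listed were measured, 10 of them bright on both days, 6 rose beside 1.37% of all genes and none fell. None of the 6 has a moved neighbour. Cubn, the endocytic receptor cubilin of the visceral endoderm, was at -2.06 at day 7 and 0.25 at day 14, a 4.97-fold rise, beside -0.95 in ES and -3.92 in EHe. Lama1, the laminin chain of the basement membrane that this endoderm lays down, stood at 0.02 in EHe, -1.81 at day 7 and -0.07 at day 14. Sox7, a transcription factor of the parietal endoderm, stood at -1.43, -4.44 and -2.77 on the same arrays. Both were lower at day 7 than in EHe, so the rise in the second week brought Lama1 back to about its level in EHe and left Sox7 below it.

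Dab2, an endocytic adaptor of this endoderm, rose from -0.31 to 0.76, and its other probe by 1.78. Pdgfra, a growth factor receptor of primitive endoderm and mesenchyme, rose from -5.47 to -3.45, both dim levels. Rhox5, an X-linked homeobox gene, rose from 1.11 to 2.65 but had been at 6.34 in EHe. Plat, which makes plasminogen activator, was higher by 0.72 and its other probe by 1.13. Lamb1 (2.49 and 2.44) and Amn (0.64 and 0.89), the partner of Cubn in its receptor, differed little, Amn with a moved neighbour. With normexp correction 3 of the 12 rose, with a median of 0.68.

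Part of the definitive endoderm list rose as well. Of 11 listed, Foxa1, Pdx1 and Shh were bright on neither day, and of the other 8, 4 rose and none fell. The 4 have no moved neighbour, and 0.932% of all genes rose without one. The median was 0.79, and 0.37 over the 7 bright on both days, which leave out Cer1. Foxa2, a pioneer factor of both kinds of endoderm, was not bright in EHe and rose from -4.57 to -2.43, beside 3.38 in Hepa1-6. Gata6 rose from -1.52 to -0.24, with its 2 other probes at a mean difference of 0.74, and Sox17 from -2.95 to -1.74, with its other probe at 1.64. These 3 factors are also expressed in extraembryonic endoderm. Cer1, a secreted antagonist of Nodal and BMP, was not bright at day 7 and at -4.42 at day 14, at least 3.34-fold higher. Cxcr4 (0.37), Prox1 (0.19) and Hhex (-0.03, with a moved neighbour) were within 2-fold. With normexp correction 2 of the 8 rose.

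Of the 9 hepatocyte genes measured, none rose and Trf, the iron carrier transferrin, fell from -1.03 to -2.39, beside 4.67 in Hepa1-6. Hnf4a, the master regulator of hepatocytes, stayed dim at -4.28 and -4.37. The median of the list was -0.09. Of the 7 trophoblast genes measured of 12 listed, Plac1 rose from -5.52 to -4.03 and Tfap2c, which ES cells and germ cells also express, fell from -0.51 to -1.83.

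**Figure D4:**
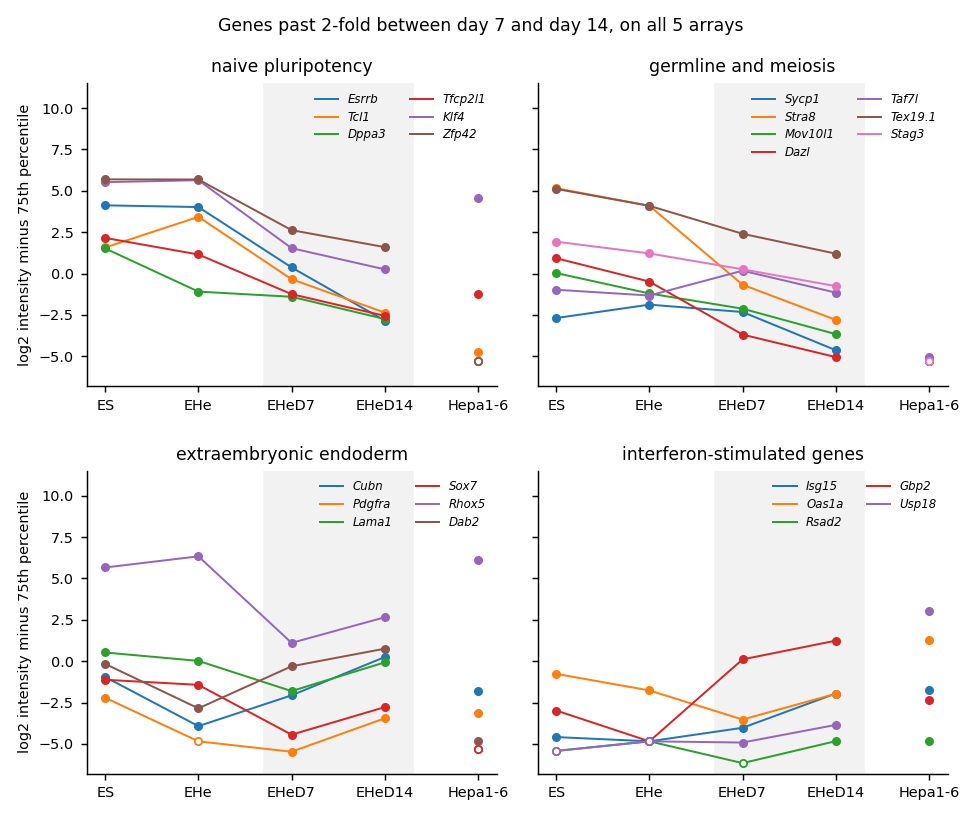
Levels of the members past 2-fold of 4 lists on all 5 arrays, as log2 intensity minus the 75th percentile of the array. Open points were not well above background and are drawn at the detection limit, or at their own level where it was higher. Lines join ES, EHe, EHeD7 and EHeD14, and the shaded band holds the days compared. The naive genes other than Dppa3 step down by more than 2 between EHe and EHeD7 and again by 1.03 to 3.21 between the shaded arrays.

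Some interferon-stimulated genes rose. Of 19 listed, Mx1 and Mx2 had no named probe and Ifit1, Ifit3 and Ifi44 were bright on neither day. Of the other 14, 5 rose, beside 1.37% of all genes, none fell and 11 were above 0, with a median difference of 0.76. Without moved neighbours 4 rose, Isg15 dropping out. With a common detection limit 4 rose as well, Rsad2 dropping out. Isg15, a ubiquitin-like modifier, was at -4.02 and -1.95, a 4.2-fold rise, but has a moved neighbour and no other probe. Oas1a, a sensor of double-stranded RNA, rose from -3.52 to -1.97, after -0.76 in ES and -1.76 in EHe. Gbp2, a guanylate-binding protein, was not bright in EHe and rose from 0.11 to 1.24. Usp18, which removes Isg15 from proteins, rose from -4.91 to -3.85. Rsad2, the antiviral enzyme viperin, was not bright at day 7 and reached -4.83, 2.51-fold above the day 7 detection limit. With a common limit it was within 2-fold. The signal transducers Stat2 (0.44) and Irf9 (-0.05) were within 2-fold, and Bst2, at 5.34 and 5.84, was as well. With normexp correction 3 of the 14 rose.

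The interferon-stimulated response element was searched for as GAAANNGAAA on both strands of the same RefSeq windows. Of the 19 listed genes 15 had a window, and 10 of these held it (66.7%), beside 3.99% of all genes with a window. The list was chosen as interferon-stimulated, so this share describes the list and not the rise at day 14. Stat2 and Bst2, which were within 2-fold, held it as well. Usp18 had no promoter window, so the element was not searched for in it. The stretches around it are shown for the genes that rose, on the strand of the gene, with the element in capitals. Overlapping matches in Isg15 and Oas1a run together.
Isg15, minus strand, chr4:156200862-156200921: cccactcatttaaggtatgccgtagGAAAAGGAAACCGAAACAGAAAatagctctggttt
Oas1a, minus strand, chr5:120907526-120907585: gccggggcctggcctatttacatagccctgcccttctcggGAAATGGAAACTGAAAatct
Gbp2, plus strand, chr3:142620579-142620638: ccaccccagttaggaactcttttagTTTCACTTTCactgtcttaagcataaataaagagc
Rsad2, minus strand, chr12:26456538-26456597: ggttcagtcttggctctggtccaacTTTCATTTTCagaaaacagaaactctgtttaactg

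The MHC class I antigen processing genes, which interferon also induces, were measured in full. All 12 were bright on both days, 11 were above 0, 2 rose and none fell, with a median difference of 0.55 that was 0.53 with normexp correction. Psmb8, a catalytic subunit of the immunoproteasome, was not bright in EHe and rose from 1.86 to 3.55, and its other probe by 1.61. Psmb10, another such subunit, rose from 2.73 to 3.82. H2-K1, a class I heavy chain, was at 2.88 in EHe, 3.69 at day 7 and 4.43 at day 14, with 2 other probes at a mean difference of 0.53. B2m, its light chain, was at 0.16, 1.39 and 1.94 on the same arrays. Both had thus been lower in EHe than at day 7. Tap1, a peptide transporter, was the exception at 0.19 and -0.20. Of the 10 genes of this list with a promoter window, 2 held the interferon-stimulated response element (20%). None of the 10 chemokine and cytokine genes measured of 15 listed was past 2-fold, with a median of 0.33 and with Il6 and Tnf bright on neither day.

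Cell division genes were level between the days. None of the 16 proliferation genes measured of 17 was past 2-fold, with a median difference of 0.02 and a range from -0.21 to 0.31, and Mki67, the proliferation antigen, was at 4.94 and 4.73. None of the 10 reference genes was past 2-fold either, with a median of 0.03. The 14 p53 targets and CDK inhibitors (median -0.20) and the 13 immediate early genes (median -0.03) held no gene past 2-fold.

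Metabolic lists shifted by small steps. All 15 hypoxia and glycolysis genes were below 0, with a median of -0.38. Egln3, an oxygen-sensing prolyl hydroxylase that hypoxia induces, was the 1 that fell, from 1.87 to 0.63. Pgk1, a glycolytic kinase, was at 7.70 and 7.32, Slc2a1, the main glucose transporter, at 6.31 and 5.95, and Pdk1 at 2.35 and 1.83 with its other probe at -0.61. Adm was lower by 0.83, whereas Pfkp differed by -0.91 on its brightest probe and by 0.07 on its other. Of the 11 cholesterol synthesis genes, 10 were above 0 and none was past 2-fold, with a median of 0.41. Idi1 was higher by 0.62 and Hmgcs1 by 0.47. Of the 9 genes of the unfolded protein and amino acid response, Chac1, which degrades glutathione, rose from 0.59 to 1.79, and the median was 0.15.

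Signalling lists gave single genes. Of the 8 Wnt targets measured of 12 listed, Dkk1, a secreted Wnt antagonist, rose from -2.84 to -1.14 with its other probe at 1.14, Lef1, a nuclear partner of beta-catenin, fell from -1.79 to -2.89, and the median was -0.25. Of 10 measured BMP genes, Id1, an inhibitor of differentiation factors, rose from -1.98 to -0.88 with its other probe at 1.12, and the median was 0.18. Of 13 TGF-beta targets and ligands, Inhba, the activin A chain, fell from -3.93 to -5.23, and the median was 0.20. Of 6 measured retinoic acid genes, Cyp26a1, the enzyme that clears retinoic acid, rose from -1.37 to 0.62, after -2.69 in EHe, and the median was -0.13. None of the 8 measured Notch genes was past 2-fold. Of 13 measured imprinted genes, Igf2, a fetal growth factor, rose from -1.82 to -0.54 with its other probe at 1.03, and the median was 0.22.

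Markers of mesoderm and its tissues were mostly level. Of 10 primitive streak genes measured of 12 listed, Gsc, a homeobox gene of the organizer, rose from -2.02 to -0.84, and Fgf8 from -0.25 to 0.84 with its other probe at 0.99. T, or brachyury, was at 1.62 and 1.71 and Eomes at 0.62 and 0.59, neither of them differing beyond the scanner's error, and the median was 0.04. Of 15 cardiac genes measured of 17, Nkx2-5 fell from -1.63 to -2.78, and the median was 0.09. No smooth muscle gene of 11 was past 2-fold, with Acta2 at 3.67 and 3.70. Of 7 skeletal muscle genes measured of 10, Mylpf fell from -0.16 to -1.31, after 3.08 in ES, and Myf6 by at least 2.04-fold to below background, while Myod1 and Myog were bright on neither day.

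Matrix and mesenchyme genes gave isolated changes of dim genes. Of 16 collagen and matrix genes measured of 20, Col5a2 fell from -2.10 to -3.97 and Postn rose from -5.35 to -4.30, and the median was -0.13. Of 13 mesenchyme and fibroblast genes measured of 14, Pdgfra, named above, and Cdh2, or N-cadherin, rose, Cdh2 from -5.11 to -3.92, and the median was 0.28. Of 8 cartilage and bone genes measured of 13, Alpl, an alkaline phosphatase that ES cells also express, fell from 0.21 to -1.19, after 3.55 in ES and 2.37 in EHe. None of the 4 adipocyte genes measured of 9, the 13 epithelial genes (median 0.01), the 7 red blood cell genes measured of 11 or the 3 macrophage and leukocyte genes measured of 11 was past 2-fold. Of 7 endothelial genes measured of 12, Pecam1, which ES cells also carry, fell by at least 2.07-fold to below background, after -0.48 in ES.

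Neural genes did not move as a group. None of the 10 neural progenitor genes measured of 13, the 6 glial genes measured of 7 or the 6 neural crest and melanocyte genes measured of 10 was past 2-fold. Of 15 neuron genes measured of 17, Neurod1 fell from -3.61 to -4.64, and the median was -0.05. Of the 39 Hox genes listed, 20 were bright on neither day and 16 were measured. Hoxc5 was not bright at day 7 and at -3.11 at day 14, at least 8.27-fold higher, Hoxb4 rose from -5.85 to -4.72, Hoxb13 fell from -2.96 to -4.16, and the median was 0.22. With a common detection limit 1 rose, Hoxb4 dropping out, and the median was 0.03. With normexp correction Hoxb4 differed by 0.12.

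By single genes, the largest rises among those bright on both days were led by spots with moved neighbours. Of the 15 largest, between 4.51-fold and 24.7-fold, 7 had one: Gask1a (24.7-fold), Btn2a2, Mpzl3, Cpxm2, Zmynd12, Bmi1 and Pigz. Gask1a was not bright in ES, EHe or Hepa1-6. The other probe of Cpxm2 differed by 0.83 and that of Zmynd12 by -0.15, against 3.52 and 3.08 for their brightest probes. The 8 without a moved neighbour were Spink1, a trypsin inhibitor, at -3.49 and -0.03 (11.0-fold), Dbh, which makes noradrenaline, at -5.03 and -2.23 (6.98-fold), and Cubn, Srgn, Pga5, Slpi, Htr7 and Aqp8. Srgn, the proteoglycan serglycin, stood at 1.86 in ES, -0.83 in EHe, -0.39 at day 7 and 1.90 at day 14. Aqp8, a water channel, stood at 0.98, -2.65, -1.99 and 0.18 in the same order. Spink1, Srgn, Pga5, Cubn, Aqp8 and, at a dim -4.47, Dbh were bright in ES, while Slpi and Htr7 were not.

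The 15 largest falls among genes bright on both days lay between 5.33-fold and 11.3-fold, and 5 had a moved neighbour: Mfsd7a, Jam2, Prok2, 4930544G11Rik and 1700048O20Rik. Jam2, a junction protein of ES cells, stood at 4.12 in ES, 3.98 in EHe, 0.23 at day 7 and -3.04 at day 14. Mfsd7a, in contrast, was bright on the differentiated arrays alone, at -0.58 and -4.07. The 10 without a moved neighbour were Esrrb, Triml1, D630039A03Rik, Trap1a, Tex14, Akap6, Pla2g1b, Syce1, Dmrtc1c2 and Morc1. Triml1 was at 3.24 in EHe, 1.34 at day 7 and -1.83 at day 14 (8.98-fold). Trap1a, an X-linked tumor rejection antigen, was at 5.54, 3.40 and 0.65 on these arrays. Tex14, needed for the bridges between germ cells, was at -2.35 and -5.07, Syce1, another synaptonemal complex protein, at 0.80 and -1.81, and Morc1, which represses transposons in the male germline, at -0.10 and -2.52. These 3 have germ cell roles but were not in the germline list, and they were singled out after their values were seen.

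Genes bright on 1 day alone gave the largest folds, and most of those named here had moved neighbours. The folds of Zfp174 and Htr2c are not bounds, since both kept their own dim level at day 7. Of the 8 largest rises from below background, 6 had one (Olfr1123, Zfp174, Ly6f, Slc14a1, Htr2c and Mafa), and the others were 1600029I14Rik, at least 33.2-fold higher, and Fndc8, at least 8.96-fold. Of the 8 largest falls to below background, 7 had one (Slamf1, Syt14, Tmem207, Tmprss11f, Gm5577, Vmn1r33 and Smarca2), and the other was Insc, at least 13.3-fold lower. Of these 16 genes, none was bright in ES or EHe. The other probe of Smarca2 differed by -0.41.

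A panel of 12 genes was put together here from the study's RT-PCR of tumor-related genes and its Foxa1 knockdown. It was level apart from Bmi1, with Mgmt without a named probe and Foxa1 bright on neither day. Bmi1, a Polycomb protein that represses Cdkn2a, was at -4.45 at day 7 and -1.53 at day 14, a 7.61-fold rise on its brightest probe, which has a moved neighbour, while its other probe differed by 0.11. Cdkn2a, the cell cycle inhibitor locus, was at -4.80 and -5.25, beside 0.44 in Hepa1-6. Egfr, a growth factor receptor, was at 0.77 and 0.22, with 3 other probes at a mean difference of -0.50. Cdkn1a was at 3.16 and 2.93, Fas at -0.64 and -0.94, and Junb at 3.31 and 3.28. Tgfa (-0.38), Jun (-0.11), Bcl2 (0.13) and Fos (0.30) were also within 2-fold. The median of the 10 measured genes was -0.17.

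The direction of the late changes was set beside the difference between the parents, Hepa1-6 minus ES, a comparison that uses neither day's array. ES and Hepa1-6 lay on different slides, so slide and parent cannot be told apart there. Of all probes, 11.2% were past 3-fold in favour of Hepa1-6 and 18.2% in favour of ES. Of the 180 probes over 3-fold lower at day 14, 33.9% were lower in Hepa1-6 than in ES and 7.22% higher. Of the 76 of them without a moved neighbour, 65.8% were lower in Hepa1-6 and 9.21% higher. Of the 187 probes over 3-fold higher at day 14, 10.2% were higher and 9.09% lower in Hepa1-6, and of the 74 without a moved neighbour 12.2% and 16.2%. No test of these shares was made. Foxa2, Usp18 and Oas1a were among the risen genes brighter in Hepa1-6 than in ES, while Srgn, Sox17, Gata6 and Lama1 were brighter in ES.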

How the data were processed

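Labelled RNA of 5 conditions was hybridised to 1 Agilent mouse array each, with Cy3 per the labels and Cy5 per the study's methods. The authors deposited, for every spot, the intensity that Agilent Feature Extraction 10.7.3.1 (named in the submitters' processing notes) had corrected for background, without normalization between arrays, together with its 0 or 1 calls, a category deposited beside the intensities. The series table held the same values. Here control and outlier spots (73 to 174 per array) were left out, log2 intensities were shifted by the 75th percentile (a signal of 1307 at day 7 and 1335 at day 14) and spots of a probe averaged. Probes were named through RefSeq records. A gene's level is its brightest probe.

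With 1 array per condition no test was run. Named were the 15 largest rises and falls bright on both days, and 8 genes each way bright on 1 day alone. Members of 42 gene lists past 2-fold were named with some others, chosen after their values were seen. Members and lists were chosen with earlier results of these data known. The alternatives were signals as measured, normexp (offset 50), quantile and median scaling, other filters, 4-fold and the mean of a gene's probes. Leaving out probes with moved neighbours and a common detection limit were added after seeing the data. The script was also run on simulated probes with set changes, which checks the calculation and not the differences between the days. Calculations ran in R 4.3.3 with limma 3.58.1 and in Python 3.11.15 with pandas 2.3.3 and numpy 2.4.6. Some list members are not reported here by name.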

Additional observations from a re-analysis of the deposited data

How the results depend on the processing

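No paired analysis was possible because either day was measured on 1 array. No called result reversed. The counts depended most on dim probes. Of probes over 3-fold, signals as measured gave 291 higher and 424 lower, normexp 36 and 42, probes bright on both days 74 and 81, and leaving out probes with moved neighbours 74 and 76, in place of 187 and 180. Over 4-fold, 130 were higher and 115 lower. A common detection limit gave 148 probes over 3-fold higher and 315 over 2-fold higher, and left the 180 and 493 lower unchanged. Over 2-fold, normexp gave 108 higher and 182 lower, probes bright on both days 215 and 297, and leaving out moved neighbours 253 and 321, in place of 431 and 493, and signals as measured gave 839 lower. Of the calls past 3-fold, 113 higher and 99 lower probes were bright on 1 day alone, while 25833 of all 28151 tested were bright on both. Normexp pulls dim values together by construction. Without a filter the median of all probes was 0.17 in place of 0.01, since probes bright on neither day stand at unequal detection limits.

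The medians of the naive, germline, endoderm and interferon lists kept their sign. With normexp they were -0.91 for naive pluripotency, 0.33 for definitive endoderm, 0.68 for extraembryonic endoderm, 0.30 for interferon-stimulated genes and -1.01 for the germline. Without moved neighbours they were -1.28 for naive pluripotency, 1.21 for definitive endoderm and 1.06 for extraembryonic endoderm. Signals as measured gave 1.20 for extraembryonic endoderm, the mean of a gene's probes 1.17 for it and 0.96 for definitive endoderm, and a common detection limit 0.61 for interferon-stimulated genes. The share of day 14 higher probes that were lower in Hepa1-6 than in ES was 20.3% as measured, 5.56% with normexp and 5.1% with quantile scaling, and that of the day 14 lower probes 45.2% with normexp. The cause was not tested.

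Of the 99 named gene calls past 2-fold, 74 were past it with normexp, 98 with median scaling or with the mean of a gene's probes, and 99 as measured and with quantile scaling, all 99 in the same direction each time. Spot noise limits differences of dim probes, and culture-to-culture variation was not measured.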

Other observations

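Changes were also counted by chromosome. Of 513 X-linked genes measured, 15 fell without a moved neighbour (2.92%), beside 1.34% of 14181 autosomal genes, and 8 rose (1.56%), beside 0.91%. Among single autosomes the share of such falls reached 2.19%, on chromosome 12. The share of such rises reached 1.94%, on chromosome 19, above that of the X. The median difference of the X-linked genes was -0.02, beside 0.02 over all genes. Of the autosomes, chromosome 10 had the largest median, 0.17 over 689 genes, followed by chromosome 17 at 0.08. The cause was not tested. Among the X-linked falls were 3 genes of the Rhox cluster, homeobox genes of the reproductive tract and placenta. Rhox9 was at 3.32 in EHe, 0.86 at day 7 and -1.25 at day 14, Rhox6 at 1.75, -0.56 and -2.13, and Rhox2a at 0.57, -4.26 and -5.43. Rhox5, of the same cluster, went the other way, from 1.11 to 2.65, as given above. Genes of this cluster have close copies that a probe may also detect.

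Other X-linked falls included Trap1a and Taf7l, described above. Mageb16, of the melanoma antigen family, stood at 2.52 in ES, 3.32 in EHe, 1.68 at day 7 and 0.22 at day 14, and its other probe differed by -1.63. Fmr1nb stood at 0.57, 0.08, -0.65 and -2.44 in the same order, and Ott fell to below background from -3.70, with its other probe at -1.30. Porcn, which acylates Wnt proteins for secretion, fell from 0.94 to -0.51. These genes were singled out after their values were seen, and no test of the chromosome was run.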
